A study of Mus musculus with 8 samples.

Results

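Transcripts of 32 genes that fold proteins in the endoplasmic reticulum (ER), answer stress there or send failed proteins to degradation were measured in pancreatic islets of a pair of inbred mouse strains, AKR/J and C57Bl/6J. The genes were chosen by name, as members of these pathways, with earlier results of these data known. All 32 had a probe set on the array that GEO's platform annotation assigns to them alone, and all 32 passed the detection filter, out of 10891 genes that did. Both strains had eaten a high-fat diet for 3 months, and mice on another diet were not analysed here. Islets from 2 mice were pooled into each RNA sample, 4 samples were made per strain, and each was hybridised to its own Affymetrix array, with numbers 1 to 4 in AKR/J islets and 5 to 8 in those of C57Bl/6J. The labels give no age or sex, and a p-value here reflects the variation between pools rather than between single mice.

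Proteins bound for secretion, insulin among them, fold in the ER with the help of chaperones and of enzymes that form disulfide bonds. When unfolded protein builds up, 3 sensors in the ER membrane respond. ATF6 is cut to release a transcription factor, IRE1 splices the messenger RNA of XBP1, and PERK slows translation in a way that favours the transcription factor ATF4, which in turn drives CHOP, the product of Ddit3. ATF6 and XBP1 raise chaperones and the machinery of ER-associated degradation, whereas ATF4 and CHOP act on amino acid supply, redox balance and cell death. Beta cells depend on these pathways because insulin makes up so much of what they synthesise.

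These arms are known to act through short promoter elements, so the promoters were searched for exact matches on both strands. The window, 250 bases before to 50 after the annotated start, came from RefSeq (GRCm38.p6, the C57BL/6J reference), which held it for 28 of the 32 members. The ER stress response element (ERSE), CCAAT and CCACG separated by 9 bases, occurred in 10 of these 28 members (35.7%) and in 0.119% of all 32851 promoter windows. They were Hspa5, Hsp90b1, Dnajc3, Calr, Canx, Pdia6, Ero1b, Creld2, Derl3 and Syvn1, and 9 of them are among the 18 ATF6/XBP1 targets with a window. A second form, ATTGG and CCACG separated by 1 base, was found for Dnajb11 and Herpud1 and in 0.0365% of all windows. The C/EBP-ATF element bound by ATF4, TTNCATCA, was found in 4 of the 5 ATF4/CHOP targets (Trib3, Chac1, Asns and Atf3), in Herpud1, and in 3.97% of all windows. The XBP1 element TGACGTGG occurred in 0 members and in 0.676% of windows. No motif overlapped another in a member's window. Many of these genes are known for these elements, and a match describes the reference sequence only.

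The stretches below run 5′ to 3′ on the strand of the gene, upstream of its start, with the matched bases in capitals. Derl3, Creld2 and Hspa5 show the ERSE in 3 genes whose strain differences had different sizes, and Asns, Chac1 and Atf3 show the element of ATF4.

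Derl3 (chr10:75893207-75893295): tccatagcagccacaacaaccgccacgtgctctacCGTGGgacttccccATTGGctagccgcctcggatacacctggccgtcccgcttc

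Creld2 (chr15:88819485-88819573): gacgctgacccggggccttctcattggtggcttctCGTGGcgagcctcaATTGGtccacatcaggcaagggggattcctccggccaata

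Hspa5 (chr2:34771990-34772078): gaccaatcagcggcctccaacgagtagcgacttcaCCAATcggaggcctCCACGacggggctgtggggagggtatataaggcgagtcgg

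Asns (chr6:7693210-7693267): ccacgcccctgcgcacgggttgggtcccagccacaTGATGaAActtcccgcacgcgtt

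Chac1 (chr2:119351014-119351091): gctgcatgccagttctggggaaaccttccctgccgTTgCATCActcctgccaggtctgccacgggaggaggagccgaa

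Atf3 (chr1:191183401-191183478): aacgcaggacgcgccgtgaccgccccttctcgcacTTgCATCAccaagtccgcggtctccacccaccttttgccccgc

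In Derl3, Creld2 and Asns the element is on the opposite strand, so it reads in reverse complement. It begins 156 bases before the start of Derl3, 126 before that of Creld2, 65 before that of Hspa5 and 23 before that of Asns.

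**Figure D1:**
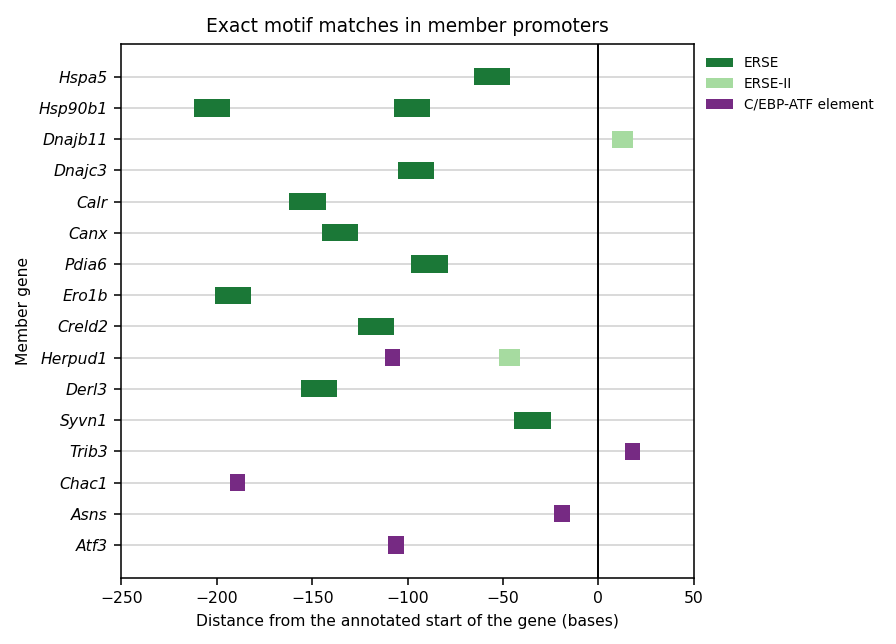
Position of each exact motif match in the promoter windows of the 16 members that had any, as distance from the annotated start in bases; bar width is the motif's length, dark green the ERSE, light green its second form and purple the C/EBP-ATF element. The ERSE lies between 212 and 44 bases before the start in 10 members, and the C/EBP-ATF element lies in 4 genes of the ATF4/CHOP arm and in Herpud1.

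The strain comparison asked which of these genes differed between islets of the strains on the same diet. Values are log2 of the deposited array values, differences are AKR/J minus C57Bl/6J, and a gene was called where limma's adjusted p over all 20772 tested probe sets was below 0.05. Each gene was represented by its brightest probe set, and levels of different genes are not compared, since probe sets differ in brightness. Of the 32 members, 3 were called higher in AKR/J (Derl3, Pdia4 and Manf), 3 higher in C57Bl/6J (Atf6, Sel1l and Asns) and 26 were not called. That is 9.38% in each direction, close to the 7.79% of all 10891 genes called higher in AKR/J and the 8.53% called higher in C57Bl/6J. The median difference over the members was 0.22, against 0.00 over all genes, and 21 members had the higher mean in AKR/J. All 4 AKR/J arrays lay above all 4 C57Bl/6J arrays for 3 members, where 13.4% of all genes did so, and the reverse held for 4 members, where 11.7% of all genes did so. In these whole-islet samples, fewer cells of a type and less RNA per cell cannot be told apart. Without C57Bl/6J array 5, 7 members were called higher in AKR/J (Dnajc3, Sdf2l1, Edem1 and Syvn1 in addition) and 1 higher in C57Bl/6J. That second number was also 1 without array 1, 2 or 4, and 0 without array 6.

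**Figure D2:**
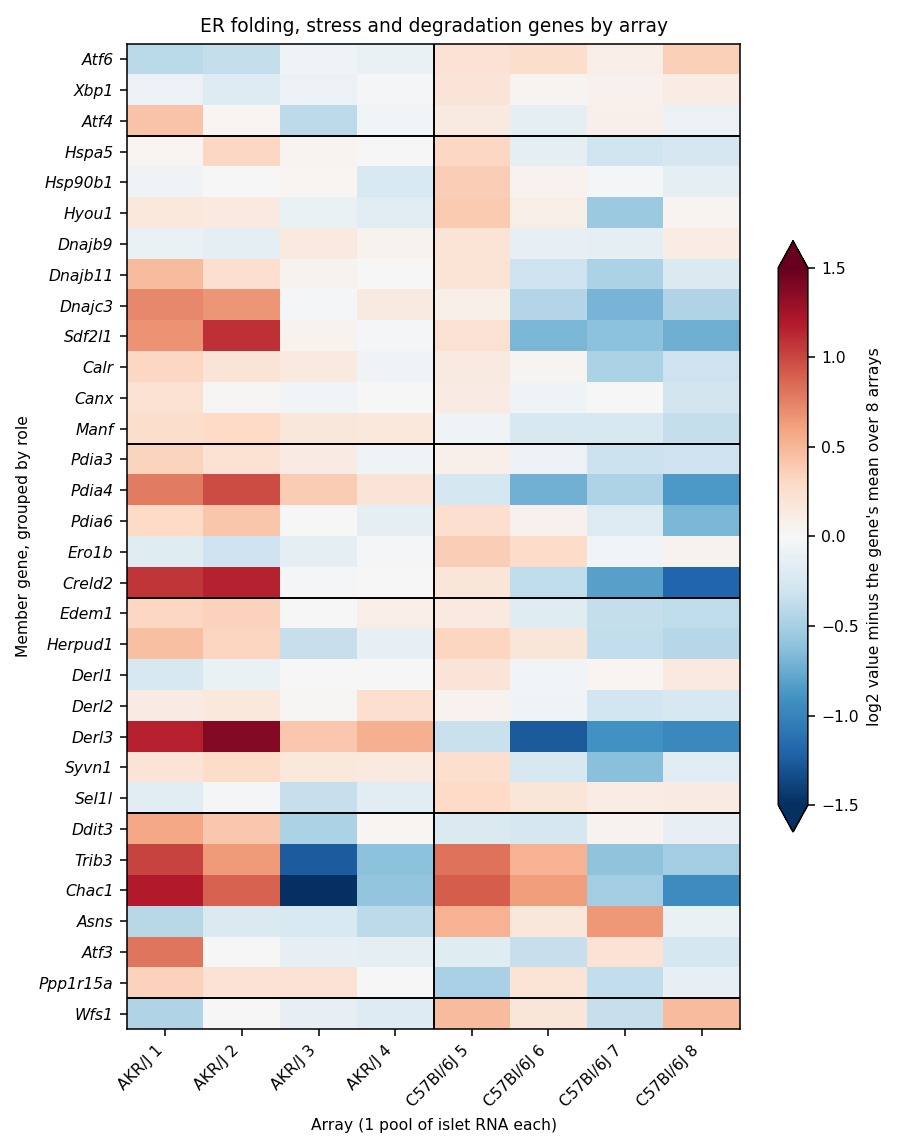
Each row is a member gene and each column an array, coloured by the log2 value minus the gene's mean over the 8 arrays (red above, blue below, colours capped at 1.5); horizontal lines separate the roles in the order sensors and transcription factors, chaperones, oxidative folding, degradation, the ATF4/CHOP arm and Wfs1. Derl3 and Pdia4 are red on all 4 AKR/J arrays and blue on all 4 C57Bl/6J arrays, while Chac1 and Trib3 are red on arrays 1, 2, 5 and 6 and blue on arrays 3, 4, 7 and 8.

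On its brightest probe set, each sensor transcript was called higher in C57Bl/6J. Atf6 read 8.73, 8.78, 9.07 and 9.04 on AKR/J arrays 1 to 4 and 9.36, 9.40, 9.24 and 9.50 on C57Bl/6J arrays 5 to 8. The strains did not overlap, and Atf6 was 1.39-fold higher in C57Bl/6J (log2 difference -0.47, SE 0.10, adjusted p = 0.0194). Its 2 other probe sets had differences of -0.16 (adjusted p = 0.489) and -0.20 (adjusted p = 0.088), neither called. The mean of all its probe sets was called (-0.28, adjusted p = 0.0387). Ern1, which encodes IRE1, read 10.56, 10.41, 10.65 and 10.56 in AKR/J and 11.36, 11.04, 10.76 and 11.00 in C57Bl/6J. Again no AKR/J array reached the lowest C57Bl/6J array, and the difference was 1.41-fold (adjusted p = 0.0354). Eif2ak3, which encodes PERK, was also 1.41-fold higher in C57Bl/6J, at 8.92 ± 0.18 and 9.42 ± 0.23 (SD, n = 4 each; adjusted p = 0.0458). These 2 were the called genes among 11 other tested genes of sensing and signalling, with 0 higher in AKR/J. The median of these 11 was 0.02, and 8.53% of all genes were called higher in C57Bl/6J. Under the MAS5-type signals, deposited separately for each array, no call was made for Atf6 (adjusted p = 0.2), Ern1 (adjusted p = 0.0885) or Eif2ak3 (adjusted p = 0.241). Atf6 also lost its call without array 2 (adjusted p = 0.0555) or array 6 (adjusted p = 0.0508). The mean of its probe sets put the Eif2ak3 difference at -0.03, and each of Ern1 and Eif2ak3 lost its call when any of 7 arrays was left out in turn (adjusted p of at most 0.0949 and 0.105).

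Xbp1, the transcription factor activated by IRE1, read 12.22, 12.12, 12.22 and 12.28 in AKR/J and 12.51, 12.36, 12.38 and 12.42 in C57Bl/6J. Every C57Bl/6J array was above every AKR/J array, by a mean of 1.15-fold, but the brightest probe set was not called (adjusted p = 0.0746). Among its other 3 probe sets, 2 were called higher in C57Bl/6J, by 1.24-fold (adjusted p = 0.0168) and 1.31-fold (adjusted p = 0.028), and the dimmest had a difference of 0.02. These arrays do not separate spliced from unspliced Xbp1. Atf4 ran from 10.53 to 11.35 in AKR/J islets and from 10.77 to 11.05 in C57Bl/6J, a difference of 0.01 with a 95% interval from -0.37 to 0.39. Its other tested probe set had a difference of -0.33 and was not called (adjusted p = 0.17). ATF4 is regulated mainly at translation, which an array of transcripts does not read.

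Among 10 chaperones and co-chaperones, Manf was the single call. Manf, an ER protein that is also secreted and protects stressed cells, read 13.61, 13.64, 13.51 and 13.50 in AKR/J and 13.29, 13.10, 13.10 and 12.98 in C57Bl/6J. The strains were apart on every array, by 1.36-fold (log2 difference 0.44, SE 0.08, adjusted p = 0.0096). The call was absent under the MAS5-type signals (difference 0.29, adjusted p = 0.144) and present in the other alternatives, each single array left out included.

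None of the major chaperones was called. Hspa5, which encodes BiP, the central ER chaperone and the usual marker of ER stress, read 13.69, 13.97, 13.70 and 13.66 in AKR/J and 13.98, 13.53, 13.37 and 13.41 in C57Bl/6J. C57Bl/6J array 5 was as high as the highest AKR/J array, so the strains overlapped, and the difference was 0.18 with a 95% interval from -0.16 to 0.51 (adjusted p = 0.45). Hsp90b1, the ER form of HSP90, ran from 13.35 to 13.61 in AKR/J islets and from 13.43 to 13.94 in C57Bl/6J (difference -0.12, interval -0.39 to 0.15). Hyou1, which recharges BiP with ATP, had a difference of 0.02 (interval -0.43 to 0.46). Differences were 0.30 (-0.05 to 0.64) for the lectin chaperone Calr and 0.11 (-0.12 to 0.34) for its membrane-bound relative Canx. Over the brightest probe sets of these 5 genes the farthest bound of an interval was 0.64 on the log2 scale, for Calr. The other probe sets had differences of 0.43 and 0.34 for Calr and 0.09 and 0.23 for Hyou1. Those of Canx had 0.41 (adjusted p = 0.0834) and 0.03, and none of these was called.

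The partners of BiP, the J-proteins among them, were not called either. Dnajc3 (p58IPK) read 13.02, 12.96, 12.26 and 12.43 in AKR/J and 12.38, 11.86, 11.60 and 11.84 in C57Bl/6J. Only AKR/J array 3 and C57Bl/6J array 5 overlapped, and the difference of 0.75 was not called (adjusted p = 0.0605). It was called in 6 of 17 alternatives, but its other 4 probe sets had differences from -0.21 to 0.23, and their mean with the brightest was 0.17. Dnajb11 (ERdj3) was at 9.31 ± 0.22 and 8.91 ± 0.29 (difference 0.40, adjusted p = 0.149) and Dnajb9 (ERdj4) at 12.56 ± 0.14 and 12.59 ± 0.17 (difference -0.03, adjusted p = 0.891). Sdf2l1, a partner of the BiP complex, read 10.18, 10.60, 9.56 and 9.49 in AKR/J and 9.74, 8.82, 8.89 and 8.78 in C57Bl/6J. Array 5 stood above the other 3 C57Bl/6J arrays and within the AKR/J range, and the 1.87-fold difference was not called (adjusted p = 0.0884). Without array 5 the Sdf2l1 difference was 1.13 (adjusted p = 0.0427).

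**Figure D3:**
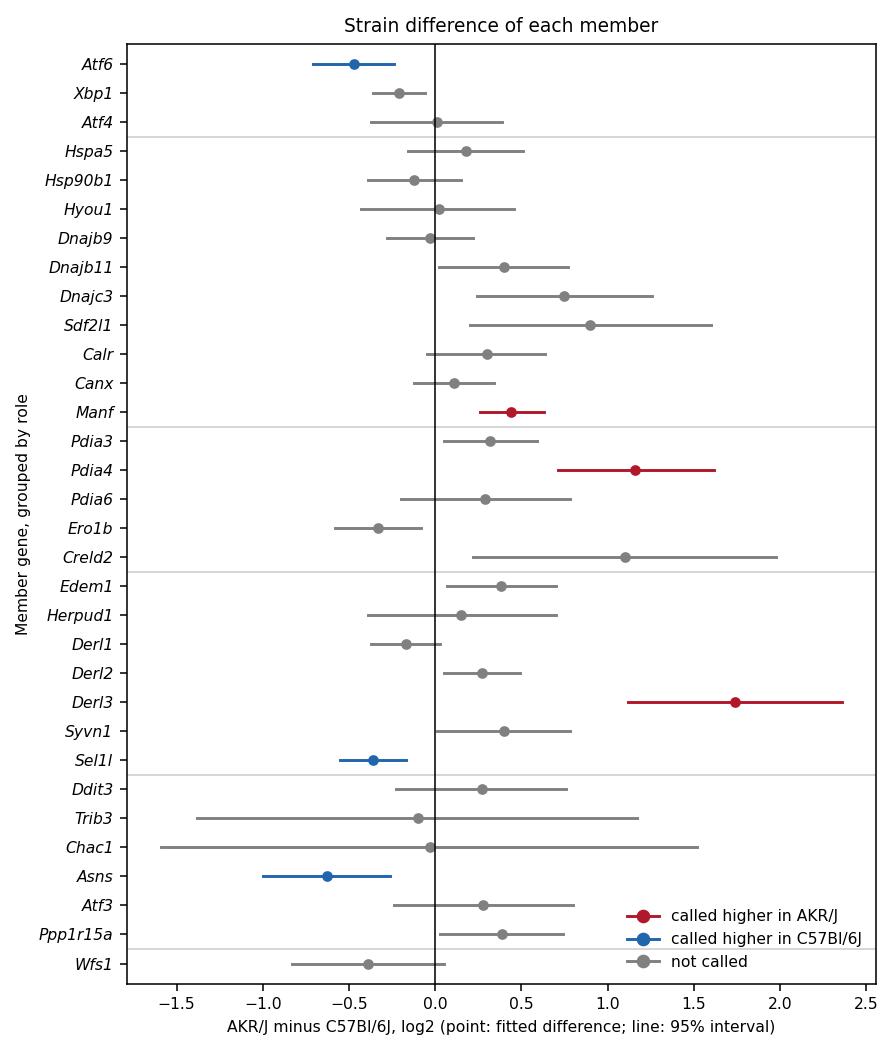
Fitted difference of each member, AKR/J minus C57Bl/6J on the log2 scale, with its 95% interval from limma (n = 4 arrays per strain); red points were called higher in AKR/J, blue points higher in C57Bl/6J and grey points not called. Derl3 at 1.74 and Pdia4 at 1.16 lie farthest to the right, Asns at -0.63 farthest to the left, and the intervals of Chac1 and Trib3 are the widest.

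Of the 5 genes of oxidative folding, Pdia4 was called. Pdia4, a disulfide isomerase, read 8.24, 8.44, 7.85 and 7.66 in AKR/J and 7.20, 6.74, 7.0 and 6.60 in C57Bl/6J. The lowest AKR/J array was above the highest C57Bl/6J array, and AKR/J had the 2.24-fold higher level (log2 difference 1.16, SE 0.20, adjusted p = 0.00692). This call held in all 17 alternatives, with adjusted p from 0.00377 to 0.027. Its relatives Pdia3 (difference 0.32, adjusted p = 0.113) and Pdia6 (0.29, adjusted p = 0.406) were not called. Pdia6 had a difference of -0.10 with the MAS5-type signals and of 0.60 with the mean of its probe sets (adjusted p = 0.119). The dimmer Pdia6 probe set had 0.91 (adjusted p = 0.0729), and the dimmer Pdia3 probe set -0.25 (adjusted p = 0.474). None of the 8 arrays detected the second Pdia4 probe set, so the Pdia4 value rests on 1 probe set, and a sequence difference between strains under its probes was not tested.

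Creld2, an ER-stress-induced protein with isomerase activity, read 12.77, 12.85, 11.68 and 11.70 in AKR/J and 11.88, 11.32, 10.89 and 10.51 in C57Bl/6J. AKR/J arrays 1 and 2 were high, and C57Bl/6J array 5 lay above AKR/J arrays 3 and 4. The 2.14-fold difference was not called (log2 difference 1.10, SE 0.38, adjusted p = 0.095), in these 17 alternatives either. Ero1b, the oxidase of the ER that is abundant in beta cells, went the other way and depended on the probe set. The brightest one was 1.25-fold higher in C57Bl/6J (adjusted p = 0.0861), the next had a difference of 0.15 (adjusted p = 0.269) and a dim one was 4.44-fold higher in C57Bl/6J (5.53 ± 0.28 against 7.69 ± 1.0, adjusted p = 0.0168). With the mean of its probe sets Ero1b was called higher in C57Bl/6J (-0.78, adjusted p = 0.027).

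Among the 7 genes of ER-associated degradation, Derl3 was higher in AKR/J and Sel1l was higher in C57Bl/6J. Derl3 encodes a derlin, a membrane protein that helps move misfolded proteins out of the ER, and is the member of its family most tied to XBP1. It read 10.15, 10.36, 9.39 and 9.52 in AKR/J and 8.65, 7.73, 8.08 and 8.02 in C57Bl/6J. The lowest AKR/J array was above the highest C57Bl/6J array, and AKR/J had the 3.34-fold higher level (log2 difference 1.74, SE 0.27, adjusted p = 0.00421). The call held in all 17 alternatives, with differences from 1.37 to 1.92 and adjusted p from 0.00199 to 0.0197. Derl3 too has only 1 probe set, and a strain difference under its probes was not tested.

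The other derlins were not called. The level of Derl1 was 11.49 ± 0.12 in AKR/J islets and 11.66 ± 0.11 in C57Bl/6J islets (adjusted p = 0.227). Its 3 other probe sets had differences from 0.01 to 0.13. Derl2 was at 10.82 ± 0.09 and 10.55 ± 0.16 (1.20-fold, adjusted p = 0.102). The 95% intervals were 1.12 to 2.36 for Derl3, -0.37 to 0.03 for Derl1 and 0.05 to 0.49 for Derl2. Whether the Derl3 difference exceeds theirs was not tested.

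Sel1l, the adaptor of the ubiquitin ligase of this pathway, read 10.28, 10.41, 10.10 and 10.27 in AKR/J and 10.74, 10.62, 10.56 and 10.57 in C57Bl/6J. All C57Bl/6J arrays were higher, by 1.28-fold (log2 difference -0.36, SE 0.08, adjusted p = 0.0258), and the 4 dimmer probe sets had differences from -0.34 to -0.12, none called. The call was lost in 7 of 17 alternatives, among them leaving out array 1, 4, 5 or 6 (adjusted p of at most 0.0632) and taking the mean of the probe sets (-0.24, adjusted p = 0.269). Syvn1, the ligase HRD1, ran from 10.42 to 10.55 in AKR/J islets and from 9.64 to 10.52 in C57Bl/6J (difference 0.40, adjusted p = 0.156). C57Bl/6J array 5 again lay within the AKR/J range. Edem1, which picks out glycoproteins for degradation, had a difference of 0.38 (adjusted p = 0.105), and Herpud1, a scaffold of the ligase complex, one of 0.15 (adjusted p = 0.704).

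**Figure D4:**
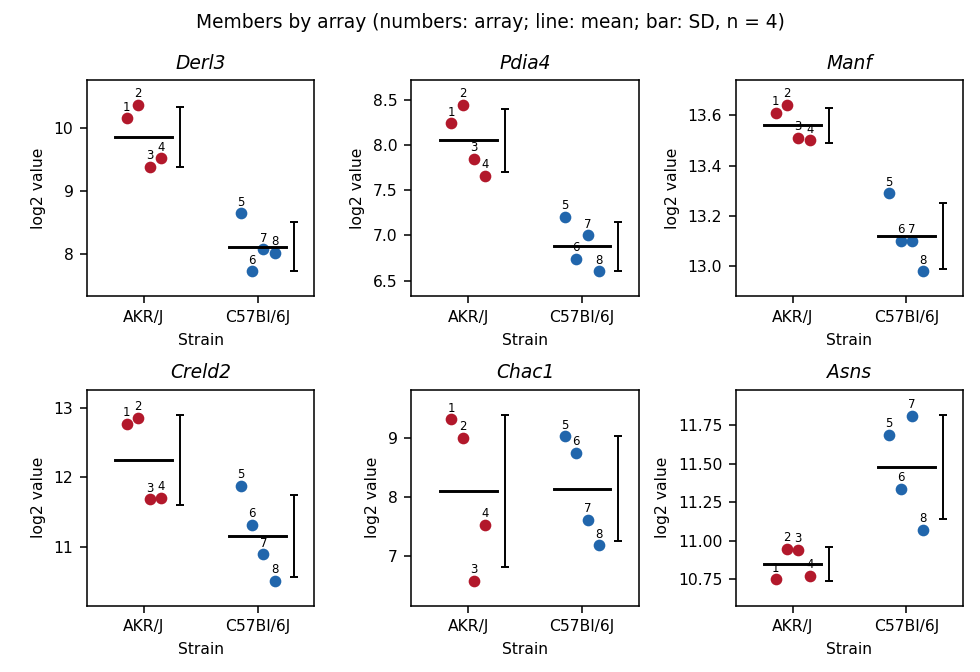
Log2 value of 6 members on each array (points, numbered by array), with the mean (line) and SD (bar, n = 4) of each strain; each panel has its own axis. Derl3, Pdia4 and Manf separate the strains with AKR/J above, Asns separates them with C57Bl/6J above, and Creld2 and Chac1 spread within a strain as far as or farther than between strains.

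In the ATF4/CHOP arm no gene was called higher in AKR/J, and Asns was called higher in C57Bl/6J. Asns encodes asparagine synthetase, a classic target of ATF4 in amino acid shortage. It read 10.75, 10.95, 10.94 and 10.77 in AKR/J and 11.69, 11.34, 11.81 and 11.07 in C57Bl/6J. Every C57Bl/6J array was above every AKR/J array, and the level was 1.55-fold higher in C57Bl/6J (log2 difference -0.63, SE 0.16, adjusted p = 0.0353). The other Asns probe set gave 1.43-fold (adjusted p = 0.0121). The brightest lost its call in 9 of 17 alternatives, among them leaving out any of arrays 1 to 7 (adjusted p of at most 0.0903), and kept its direction in all 17.

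Chac1 and Trib3 varied more between arrays of a strain than between strains. Chac1, which degrades glutathione, read 9.31, 9.0, 6.57 and 7.52 in AKR/J and 9.02, 8.74, 7.60 and 7.17 in C57Bl/6J. Arrays 1, 2, 5 and 6 were at 8.74 or more and arrays 3, 4, 7 and 8 at 7.60 or less, so each strain covered nearly the whole range and the strain means differed by -0.03 (interval -1.59 to 1.52). Trib3, a pseudokinase that restrains ATF4, read 6.44, 6.07, 4.18 and 4.82 in AKR/J and 6.25, 5.95, 4.83 and 4.91 in C57Bl/6J, with the same arrays high (difference -0.10, interval -1.38 to 1.17). The labels do not say what the sample numbers mark. The residual SD of Chac1 was 1.10 and that of Trib3 0.90, against a median of 0.18 over all genes, at the 99.9th and 99.7th percentile. In all, 8 of the 32 members were in the top 10% of genes by residual SD, the others being Creld2, Sdf2l1, Derl3, Herpud1, Atf3 and Dnajc3. For Chac1 and Trib3, intervals this wide leave strain differences of more than 2-fold in either direction unresolved.

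The stress transcription factors Ddit3 and Atf3 overlapped between strains. Ddit3, which encodes CHOP, read 9.05, 8.87, 7.99 and 8.50 in AKR/J and 8.25, 8.21, 8.52 and 8.35 in C57Bl/6J (difference 0.27, adjusted p = 0.446). Atf3 read 8.68, 7.89, 7.76 and 7.75 in AKR/J and 7.70, 7.54, 8.10 and 7.62 in C57Bl/6J, with array 1 apart from the rest (difference 0.28, adjusted p = 0.446). On array 1 the mean of 14 genes of a cytosolic heat shock list was 1.32 above its mean over the arrays (log2). It was the highest of the 8. The mean of 12 immediate-early genes was 0.24 above its own mean over the arrays. Whether either bears on the Atf3 value was not tested. Of the 12 immediate-early genes 0 were called for strain, 1 was called higher in AKR/J in 6 of 17 alternatives, and Fos and Egr1 had strain differences of 0.02 (adjusted p = 0.923) and 0.01 (adjusted p = 0.97). Ppp1r15a, the phosphatase subunit GADD34 that restores translation, was at 8.87 ± 0.14 and 8.49 ± 0.30 (1.31-fold, adjusted p = 0.135). Wfs1, the ER membrane protein whose loss causes beta cell failure in Wolfram syndrome, ran from 9.17 to 9.61 in AKR/J islets and from 9.27 to 10.09 in C57Bl/6J (difference -0.39, adjusted p = 0.217). With the MAS5-type signals the Wfs1 difference was -1.02 (adjusted p = 0.00395), and without array 7 it was -0.57 (adjusted p = 0.0323).

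The targets of the ER stress arms were then set side by side. The 21 ATF6/XBP1 targets (chaperones, isomerases, Creld2, Manf and the degradation genes) had a median difference of 0.30, with 17 higher and 4 lower in AKR/J, and 3 called higher and 1 called lower. The 5 ATF4/CHOP targets had a median of -0.03, with 2 higher and 3 lower, and 0 and 1 called. These calls are few, and stand beside 7.79% of all genes called higher in AKR/J and 8.53% called higher in C57Bl/6J. The order of these medians was not stable: they were 0.15 for ATF6/XBP1 and 0.16 for ATF4/CHOP targets with the MAS5-type signals, and 0.33 and 0.37 without array 3. The sign of the ATF4/CHOP median was not stable either, at 0.12 with Ppp1r15a added or with detection required on all 8 arrays, and from -0.44 without array 1 to 0.37 without array 3. The mean of the ATF6/XBP1 targets, relative to all arrays, was 0.34, 0.38, 0.04 and 0.03 in AKR/J and 0.15, -0.21, -0.37 and -0.36 in C57Bl/6J. Array 5 was above AKR/J arrays 3 and 4, so the strains overlapped, at 0.20 ± 0.19 and -0.20 ± 0.24 (SD, n = 4 each). The mean of the ATF4/CHOP targets was 0.63, 0.34, -0.72 and -0.34 in AKR/J and 0.37, 0.15, -0.04 and -0.39 in C57Bl/6J, and spanned 1.36 within AKR/J while the strain means differed by -0.04. The cytosolic heat shock list was drawn up with the mitochondrial chaperonins Hspd1 and Hspe1 and the transcription factor Hsf1 among its genes. The tested genes of this list were at 1.32, 0.37, -0.49 and -0.47 in AKR/J and 0.42, -0.08, -0.56 and -0.51 in C57Bl/6J. They too were highest on arrays 1, 2 and 5, and what this has to do with the ER genes was not tested. Their median strain difference was 0.29 over 14 genes, and 1 was called, Hspb8 (5.19-fold higher in AKR/J, adjusted p = 0.00754). No test of the branches against each other was made.

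**Figure D5:**
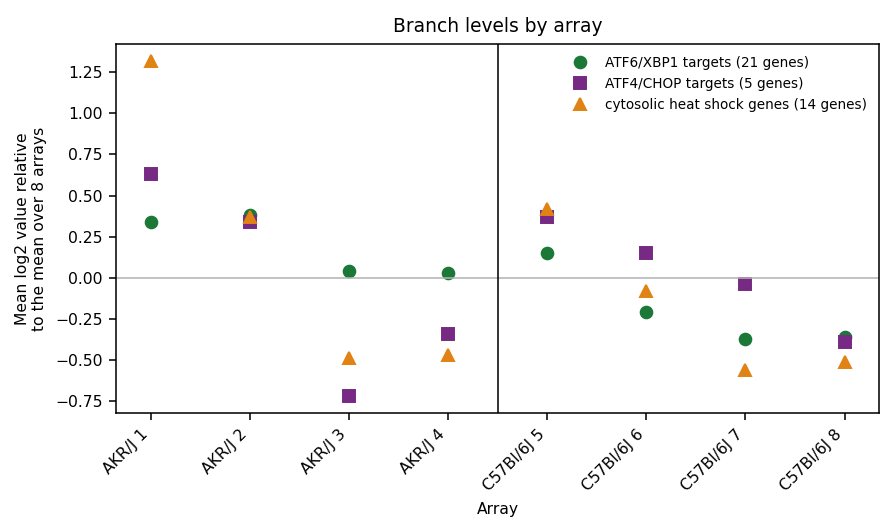
Mean log2 value on each array of 21 ATF6/XBP1 targets (circles), 5 ATF4/CHOP targets (squares) and 14 heat shock list genes (triangles). Each gene is taken relative to its mean over the 8 arrays. All 3 sets are above 0 on arrays 1, 2 and 5 and the ATF6/XBP1 targets are lower in C57Bl/6J than in AKR/J on average, while the ATF4/CHOP targets range from 0.63 to -0.72 within AKR/J.

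Members with an ERSE had fitted strain differences of both signs, as did those with a C/EBP-ATF element, and each set held 1 called gene. The 10 members with an ERSE had differences from -0.33 (Ero1b) to 1.74 (Derl3), with a median of 0.29, and 1 of them was called, Derl3. Pdia4 and Sdf2l1, with differences of 1.16 and 0.90, had no exact match in their windows. The 5 members with a C/EBP-ATF element had differences from -0.63 (Asns) to 0.28 (Atf3), with 1 called, Asns. Over all 10891 genes, calls towards AKR/J made up 7.79% and calls towards C57Bl/6J 8.53%. Sets of 10 and 5 genes are too small to set 1 call apart from these shares.

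Most genes of the same pathways outside the 32 members were not called, and those called are counted here beside the 7.79% of all genes called higher in AKR/J and the 8.53% called higher in C57Bl/6J. Of 28 genes of ER translocation and glycosylation, 6 were called higher in AKR/J and 0 lower (median 0.26). They included Ssr4, of the translocon-associated complex (1.60-fold, adjusted p = 0.000421), the signal peptidase gene Sec11c (1.58-fold, adjusted p = 0.00408) and Srp14, of the signal recognition particle (1.30-fold, adjusted p = 0.0107). Of 22 other degradation genes, 5 were higher in AKR/J and 0 lower (median 0.16), among them the lectin gene Erlec1 (2.05-fold, adjusted p = 0.000473), the ubiquitin-conjugating enzyme gene Ube2j1 (1.56-fold, adjusted p = 0.011) and the lectin gene Os9 (1.48-fold, adjusted p = 0.0144). Of 27 other folding enzymes, 6 were higher in AKR/J and 1 lower (median 0.23), with Dnajc10 (1.41-fold), Sdf4 (1.48-fold) and Prkcsh (1.58-fold) higher and Pdia2, the isomerase of acinar cells, 4.36-fold lower. Of 19 genes of ER-to-Golgi transport (median 0.11) 1 was called, Kdelr2, a receptor that returns escaped ER proteins (1.38-fold higher in AKR/J, adjusted p = 0.011). With the mean of all probe sets, 2 of the degradation genes were called higher in C57Bl/6J. The MAS5-type signals gave 1 such call for translocation and glycosylation, and 5 of 17 alternatives gave 1 for ER-to-Golgi transport. The counts higher in AKR/J depended on the setting too. For translocation and glycosylation it was 4 without array 2 and 9 after centring on array medians. For degradation it was 2 with the MAS5-type signals and 3 without array 2, 6 or 8, for folding enzymes 3 without array 1 or 6, and for ER-to-Golgi transport 0 with the MAS5-type signals and 3 without array 5. With the mean of their probe sets Ssr4 (0.21, adjusted p = 0.114) and Sdf4 (0.22, adjusted p = 0.0788) were not called, and with the MAS5-type signals Sec11c (adjusted p = 0.157), Srp14 (0.0621), Ube2j1 (0.0508) and Kdelr2 (0.084) were not.

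Of 28 other targets of ATF4 that were tested, 8 were called higher in C57Bl/6J, as Asns was, 1 was called higher in AKR/J and 19 were not called (median -0.34), beside the 8.53% and 7.79% of all genes. Nupr1, a stress-induced chromatin protein, read 10.83, 11.36, 11.18 and 10.92 in AKR/J and 12.85, 12.85, 13.07 and 13.28 in C57Bl/6J, 3.84-fold higher there with no overlap (adjusted p = 0.000124). The transcription factor gene Atf5 was 2.06-fold higher in C57Bl/6J (adjusted p = 0.00696) and Nars, which charges asparagine to its transfer RNA, 1.57-fold higher (adjusted p = 0.00637). Slc7a5, an amino acid transporter gene, was 1.46-fold higher in AKR/J (adjusted p = 0.0199). The number called higher in C57Bl/6J was 4 without array 4, 5 or 6, 5 without array 1, 2 or 7 or with the MAS5-type signals, and 10 without array 8.

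Cells other than beta cells are also rich in ER, and their markers differed between the strains on the same arrays. Counts of called markers stand beside the 7.79% of all genes called higher in AKR/J and the 8.53% called higher in C57Bl/6J. Of 16 acinar markers, 15 were called lower in AKR/J and 0 higher, and their summed linear value was 250573 to 294370 in AKR/J islets against 419491 to 427909 in those of C57Bl/6J. A further acinar marker, Rbpjl, did not pass the filter. Asns, Nupr1, Atf5 and Pdia2 were lower in AKR/J as these markers were, and the part of acinar cells in that was not tested. Derl3, Pdia4 and Manf were higher in AKR/J, and the part of acinar cells in their values was not tested either. Of 4 plasma and B cell markers past the filter, 1 was lower in AKR/J, Igha (14.7-fold), with summed values of 86 to 645 in AKR/J against 348 to 1017 in C57Bl/6J, and Mzb1, Cd79b and Tnfrsf17 did not pass it. Of 10 macrophage markers 6 were lower in AKR/J and of 7 endothelial markers 4 were higher. Of 10 beta cell markers, 0 were called higher and 2 called lower in AKR/J, the glucose transporter gene Slc2a2 (1.47-fold) and the peptide gene Ucn3 (1.43-fold), with a median difference of 0.10. Their summed values, 137183 to 146387 in AKR/J against 131529 to 138045 in C57Bl/6J, overlapped. Single markers did not all overlap: every AKR/J array was below every C57Bl/6J array for Slc2a2, Ucn3 and G6pc2, and above for Ins2 and Iapp. Ins2, Iapp, Gcg, Sst and Ppy, the hormone genes that define islets, had means of 13.77 or more in both strains. Of 6 alpha, delta and PP cell markers, Ppy (1.86-fold, adjusted p = 0.034) and Ttr (1.20-fold, adjusted p = 0.0308) were called higher in AKR/J. Of 3 duct markers past the filter, Epcam was called higher and Tspan8 lower in AKR/J, and of 7 stellate and fibroblast markers, Pdgfra and Dcn were called lower. The part of any of these cells in the members' differences was not tested.

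Counted by probe set rather than by gene, 68 of the members' 71 probe sets were tested. Of these, 3 (4.41%) were called higher in AKR/J, where 6.59% of all tested probe sets were, and 7 (10.3%) higher in C57Bl/6J, where 7.7% were. The 3 were those of Derl3, Pdia4 and Manf, each the only tested probe set of its gene, and the 7 belonged to Atf6, Xbp1, Ero1b, Sel1l and Asns. Of 20 members with several tested probe sets, 9 had probe sets of both signs and 0 had calls in both directions. For Hspa5 the 3 probe sets had differences of 0.18, -0.04 and 0.33, and for Hsp90b1 the 2 had -0.12 and 0.20, none called.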

How the data were processed

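The authors made the deposited value table with GCRMA, per the submitters' processing notes (version not given in the sources used here). It holds intensity values on a linear scale, from 1.53 to 69278, for 45101 probe sets, and was log2-transformed without further normalization, since array quantiles agreed within 0.09. A separate file for each array gives an intensity (a MAS5-type signal) and a detection p-value, per the file headers. Their deviations matched the table's columns (r of at least 0.68 with the same array, at most 0.497 with others). RNA input was 5 µg per array, per the labels, and 43.7% to 48.1% of probe sets were detected.

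Of 45037 non-control probe sets, 20772 had a detection p under 0.05 on 4 or more of the 8 arrays and were fitted with limma 3.58.1 in R 4.3.3 (lmFit, eBayes), with Benjamini-Hochberg adjustment over all of them. GEO's annotation names 1 gene for 34945 probe sets. The brightest probe set over all arrays stands for a gene. The fit was tested on simulated data. Figures used Python 3.11.15 and matplotlib 3.10.9.

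The members, lists, tests and alternatives were chosen with earlier results of these data known. Every member is named. Of each other list up to 3 called genes per direction are named in order of p, or, with no call, its 2 brightest. For alternatives other than those that change the filter or the choice of probe sets, the probe set of each gene was kept. Sample numbers are not shared between strains. The planned look at protein ends was not made.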

Additional observations from a re-analysis of the deposited data

Results flagged for a closer look

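In 3 of 64 groups of 4 arrays (32 members in each strain), 1 array lay far from the other 3, by the share of the group's range that its gap to the nearest array took up. Chance sets about 1 in 20 such groups apart. Hspa5 on AKR/J array 2 was at 13.97, with the other AKR/J arrays between 13.66 and 13.70. Sdf2l1 on C57Bl/6J array 5 was at 9.74, with the other C57Bl/6J arrays between 8.78 and 8.89. Atf3 on AKR/J array 1 was at 8.68, with the other AKR/J arrays between 7.75 and 7.89.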

How the results depend on the processing

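The number of members called higher in AKR/J was 3 or 4 in the 9 alternatives that keep all arrays, and 3 to 7 with an array left out. The number called higher in C57Bl/6J was 1 (with the MAS5-type signals) to 4 in those 9, and 0 to 3 with an array left out. The median differences ran from 0.15 to 0.40 for ATF6/XBP1 targets and from -0.44 to 0.37 for ATF4/CHOP targets. Each stayed within 1 SD between arrays (0.22 and 0.49) of its main value. For ATF4/CHOP targets that SD is wide enough to take in both signs, so it does not show a stable median. Over 543 pairs of member and alternative, 477 kept direction and side of the threshold, 20 lost a call, 16 gained one and 30 changed sign. All sign changes were in genes that were not called. These were Atf4 (-0.03 with the MAS5-type signals, -0.16 with the mean of all probe sets, -0.13 to 0.15 with an array left out), Hspa5 (-0.04 without _x_at and _s_at probe sets), Hsp90b1 (0.04 with the mean), Hyou1 (-0.05 with array weights, -0.17 to 0.15 with an array left out), Dnajb9 (0.06 with the MAS5-type signals, 0.02 after centring on array medians, -0.08 to 0.04 with an array left out), Pdia6 (-0.10 with the MAS5-type signals), Derl1 (0.00 with the mean, 0.13 without _x_at and _s_at), Trib3 (-0.46 to 0.30 with an array left out) and Chac1 (0.16 with the MAS5-type signals, 0.01 after centring, -0.44 to 0.48 with an array left out). Among other genes they were Fos (-0.02 after a further quantile normalization, -0.05 to 0.08 with an array left out) and Egr1 (-0.07 with the MAS5-type signals, -0.04 with array weights, -0.12 to 0.14 with an array left out), whose strain differences were 0.02 and 0.01. Causes were not tested. With no filter Asns (adjusted p = 0.0985), Ern1 (0.0884), Eif2ak3 (0.114) and Slc7a5 (0.051) lost their calls. Trib3 gave no value with detection on all 8 arrays. No paired analysis was possible because the strains share no sample numbers. The labels do not say whether numbers mark a shared day or round of work, so a technical grouping of arrays 1, 2, 5 and 6, on which Chac1 and Trib3 were high, was not tested. Signal near background limits Trib3 most, which was detected on 3 of 4 AKR/J arrays.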
